A study of Mus musculus with 6 samples.

Results

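Class I molecules of the major histocompatibility complex display peptides from inside a cell at its surface. Each consists of a heavy chain, encoded in mouse mostly in the H2 complex on chromosome 17, and of beta-2 microglobulin, encoded by B2m on chromosome 2. The classical heavy chains of H2-K1 and H2-D1 present peptides to CD8+ T cells, while the nonclassical ones of the H2-T, H2-Q and H2-M groups have narrower tasks, such as display of a few conserved peptides to natural killer cells or unconventional T cells. Nlrc5 binds no DNA itself, but joins a complex of factors on class I promoters and activates the heavy chain genes, B2m and genes for peptide supply. Type I and type II interferons are known to raise many of these genes.

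Described here are 8 heavy chain genes (H2-K1, H2-D1, H2-T22, H2-T23, H2-Q4, H2-Q6, H2-Q7 and H2-M3), B2m and Nlrc5. They were chosen by name and found by their Ensembl identifiers, as 10 of 35275 gene rows, and all 10 were among the 15191 genes that passed the filter on low counts. RNA came from whole lungs of Balb/c mice that had received, 7 days earlier, 250000 cells of 4T1, a mammary carcinoma line of Balb/c origin, through a tail vein. In the KO group (3 libraries) the injected cells lacked PD-L1, the ligand of the inhibitory receptor PD-1, and in the WT group (3 libraries) they were unmodified. KO thus names the injected cells, since no edit of the host mice is labelled. Whether the KO cells were 1 clone is not given, and all lungs were perfused with 20 mL of PBS before RNA extraction. The study's title asks how tumour PD-L1 bears on type I interferon and on the recruitment of cytotoxic T cells.

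Total counts were 15410121, 15222408 and 16469780 in KO replicates 1 to 3, and 14711459, 16932114 and 15355747 in WT replicates 1 to 3. At 3 counts, a count of 0 would allow up to 0.176 to 0.206 CPM (counts scaled to library size, the unit edgeR gives), which covers counting error only. The tissue label was checked on alveolar epithelium: Sftpc, the surfactant protein C gene, stood at 7784 ± 1063 CPM in KO lungs and 7846 ± 481 CPM in WT lungs (mean ± SD, n = 3 each, as throughout). Cd274, which encodes PD-L1, had 97.4 to 301 CPM in KO lungs and 53.6 to 74.3 CPM in WT lungs, at an adjusted p of 0.161 by edgeR's quasi-likelihood test. Host cells keep this gene, so its level in whole lung does not check the label of the injected cells.

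Promoter sequences are shown for 6 of the genes because the elements through which Nlrc5 and interferon factors are known to act lie in class I promoters. All 10 genes had a positive fold change, and whether these elements bear on it was not tested. Of the 10 genes, 9 matched RefSeq's table of promoters (GRCm38.p6), and each line below gives the 250 bases before the RefSeq start, 5′ to 3′ on the gene's strand. H2-K1 has 2 starts there, and the first is shown. Its NF-kB match begins at -111 from the first start and at -125 from the second. Capitals mark letters that match one of the motifs described next.
H2-K1, chr17:34000348-34000597, minus strand: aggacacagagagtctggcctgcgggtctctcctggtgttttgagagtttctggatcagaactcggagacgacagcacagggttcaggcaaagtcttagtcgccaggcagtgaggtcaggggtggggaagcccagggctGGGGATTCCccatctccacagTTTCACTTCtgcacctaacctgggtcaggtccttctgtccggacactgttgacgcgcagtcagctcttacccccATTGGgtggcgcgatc
H2-D1, chr17:35262844-35263093, plus strand: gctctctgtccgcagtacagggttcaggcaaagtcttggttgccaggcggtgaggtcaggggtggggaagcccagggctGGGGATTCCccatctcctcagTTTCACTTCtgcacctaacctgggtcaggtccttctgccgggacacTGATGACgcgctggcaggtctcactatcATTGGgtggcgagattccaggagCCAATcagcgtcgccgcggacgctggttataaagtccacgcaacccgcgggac
H2-T22, chr17:36042743-36042992, minus strand: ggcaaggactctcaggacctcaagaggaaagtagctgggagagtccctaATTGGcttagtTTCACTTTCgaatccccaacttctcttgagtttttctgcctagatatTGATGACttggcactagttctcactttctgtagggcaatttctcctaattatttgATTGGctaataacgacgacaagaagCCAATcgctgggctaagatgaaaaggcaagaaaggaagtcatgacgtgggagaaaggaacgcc
H2-T23, chr17:36032702-36032951, minus strand: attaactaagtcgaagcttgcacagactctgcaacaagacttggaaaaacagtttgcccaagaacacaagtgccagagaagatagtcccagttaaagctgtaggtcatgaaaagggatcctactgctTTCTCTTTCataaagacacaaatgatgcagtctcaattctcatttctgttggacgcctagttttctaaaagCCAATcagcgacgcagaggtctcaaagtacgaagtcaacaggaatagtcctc
H2-M3, chr17:37269984-37270233, plus strand: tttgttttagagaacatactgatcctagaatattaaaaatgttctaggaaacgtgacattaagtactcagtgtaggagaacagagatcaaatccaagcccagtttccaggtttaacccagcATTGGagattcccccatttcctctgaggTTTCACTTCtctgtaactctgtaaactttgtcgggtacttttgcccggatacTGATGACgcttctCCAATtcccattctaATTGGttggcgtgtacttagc
B2m, chr2:122147437-122147686, plus strand: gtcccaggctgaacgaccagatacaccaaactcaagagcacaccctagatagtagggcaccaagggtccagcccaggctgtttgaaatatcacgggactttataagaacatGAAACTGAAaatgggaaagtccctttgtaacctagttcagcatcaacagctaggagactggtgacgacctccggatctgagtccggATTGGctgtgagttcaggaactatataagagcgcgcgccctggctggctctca

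The search covered both strands of a window from 250 bases before to 50 after the start, for all 32851 promoters of the table. CCAAT, the core of the Y box to which the NF-Y factors bind, was found in 9 of 9 genes and in 37.4% of all promoters. GGGNNTTCC, the NF-kB site of the enhancer A element, occurred in H2-K1, H2-D1, H2-Q4, H2-Q6 and H2-Q7, and in 5.82% of all promoters. GAAANNGAA, a core of the interferon-stimulated response element, occurred in H2-T22, H2-T23 and B2m, and in 8.56% of all promoters. The X2 box forms TGACGCA (2.12% of all promoters) and TGACGTCA (1.79%) were in 0 of 9.

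A pair of further motifs was chosen after these sequences had been read, so their counts in these genes describe the choice and support nothing. GAANNGAAA, the same response element core with its ends exchanged, occurred in the 6 genes without GAAANNGAA, which are H2-K1, H2-D1, H2-Q4, H2-Q6, H2-Q7 and H2-M3, and in 7.52% of all promoters. Both cores can overlap in a longer repeat, and 1 or the other was in 9 of 9 genes and in 14.8% of all promoters. TGATGAC, a short X2-like sequence, was in H2-D1, H2-T22, H2-Q4, H2-Q6, H2-Q7 and H2-M3, and in 3.23% of all promoters. These 6 genes held a response element core, TGATGAC and CCAAT together, as did 0.24% of all promoters. In the H2-D1 window the NF-kB match began at -171, the response element core at -150, TGATGAC at -104 and the CCAAT matches at -76 and -53, counted from the start. H2-Q4 had the same order at -173, -153, -107, -79 and -55. The RefSeq sequence is that of C57BL/6J, which carries another H2 haplotype than Balb/c, so the bases in these mice may differ. Matches are letters in a window and were not tested for binding.

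**Figure D1:**
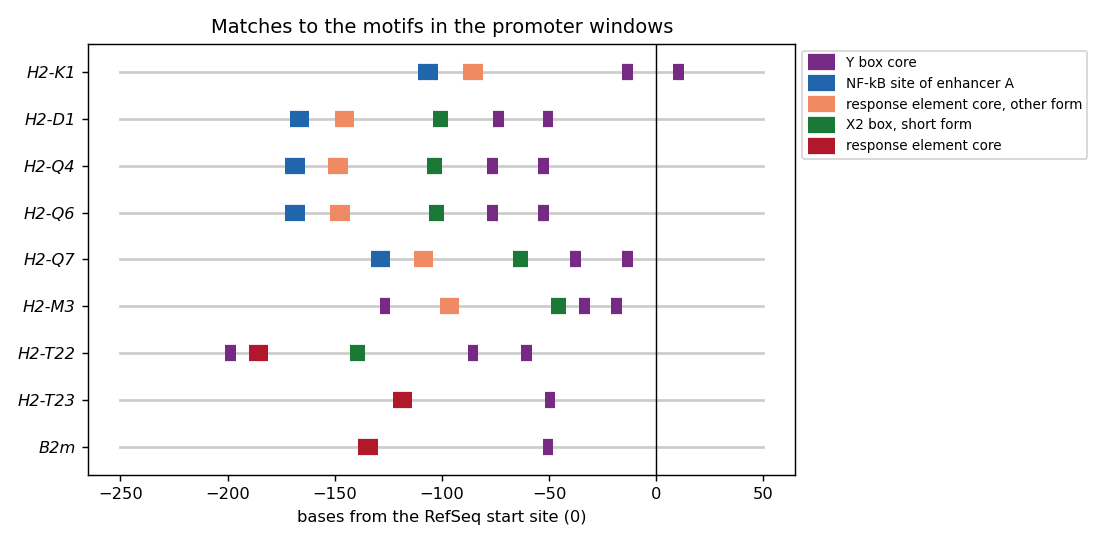
Positions of the motif matches in the RefSeq promoter windows of 9 genes, in bases from the start site, with motifs by colour. For H2-K1 the first of its 2 starts is used. H2-D1, H2-Q4, H2-Q6 and H2-Q7 show the same order of matches, while H2-T23 and B2m hold 1 response element core and 1 CCAAT each.

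In KO lungs, 8 of the 10 genes rose against WT lungs and 0 fell. Over all genes tested, 170 rose, which is 1.12%, and 51 fell. The 10 genes were chosen with earlier results of these data known, so this contrast is a description only. For 9 of the 10 the ranges of the KO and WT libraries did not overlap, each time with KO above WT, while 19.7% of all tested genes had ranges that did not overlap in either direction. The 10 log2 fold changes ran from 0.57 (H2-M3) to 1.23 (H2-T23) with a median of 0.83, beside a median of 0.01 over all genes tested. H2-T22 and H2-M3 did not pass the test after adjustment. In whole lung, a change in the number of cells that express a gene and a change in RNA per cell cannot be told apart. Markers of monocytes and macrophages had a summed level of 346 to 536 CPM in KO lungs and 229 to 275 CPM in WT lungs. Sums of neutrophil and airway epithelial markers were also higher in all KO libraries, and the platelet sum was lower. Sums of the other marker lists overlapped, as given below. The part of these cells in the class I values was not tested. The count of 8 depended on single libraries: it was 3 without KO replicate 2 or without WT replicate 2, 4 without KO replicate 3 or without WT replicate 1, 6 without WT replicate 3, and 9 without KO replicate 1. It was 0 when a fold change above 1.5 was itself required by the test.

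H2-K1 (chromosome 17, 33996017 to 34000347, GRCm38) encodes a classical heavy chain. It had 141, 153.8 and 161.8 CPM in KO replicates 1 to 3, against 91.3, 93.1 and 86.0 CPM in WT replicates 1 to 3. The KO libraries lay close together and well above the WT libraries. The log2 fold change was 0.76 ± 0.10 (SE), with an adjusted p of 0.00482 by edgeR's quasi-likelihood test with Benjamini-Hochberg adjustment, as for all adjusted p below.

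H2-D1 (chromosome 17, 35262730 to 35267499) encodes the other classical heavy chain of the reference and was the most abundant of the 8 heavy chain transcripts per length. Its values were 2131, 2327 and 2552 CPM in KO lungs, against 1495, 1316 and 1428 CPM in WT lungs. The groups did not overlap, and the log2 fold change was 0.73 ± 0.11 (adjusted p = 0.00891). Without KO replicate 2 the adjusted p was 0.0722 and without WT replicate 2 it was 0.0744, both at a fold change of similar size (0.73 and 0.68). H2-D1 made up 58.7 ± 2.43% of the counts of the 8 heavy chains in KO lungs and 61.7 ± 0.48% in WT lungs. Together the 8 heavy chain genes took 0.351, 0.400 and 0.450% of all counts in KO lungs, against 0.240, 0.213 and 0.231% in WT lungs.

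Among the nonclassical genes, H2-T23 (chromosome 17, 36029773 to 36032855) changed most. It encodes Qa-1, which presents leader peptides of other class I chains to the CD94/NKG2A receptor of natural killer cells. H2-T23 had 536.5, 681.9 and 854.3 CPM in KO lungs, against 335.7, 253.0 and 297.4 CPM in WT lungs. The lowest KO library was above the highest WT library, with a log2 fold change of 1.23 ± 0.16 (adjusted p = 0.00379). H2-T23, H2-K1 and B2m were the 3 genes that still passed when any 1 library was left out.

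The neighbouring H2-T22 (chromosome 17, 36037128 to 36042747) encodes a chain known as a ligand of gamma delta T cells. It had 116.2, 162.8 and 205.3 CPM in KO lungs, against 121.4, 95.2 and 104.8 CPM in WT lungs. KO replicate 1 lay below WT replicate 1, so the groups overlapped. The log2 fold change of 0.59 ± 0.17 did not pass (adjusted p = 0.12), and it was 0.78 with an adjusted p of 0.00339 without KO replicate 1. Without KO replicate 3 it was 0.38, with an adjusted p of 0.386. DESeq2 gave an adjusted p of 0.0275 for H2-T22 on all 6 libraries.

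The Q group genes encode nonclassical chains, and H2-Q6 and H2-Q7 belong to the Qa-2 genes. H2-Q4 (chromosome 17, 35379617 to 35385290) had 375.8, 425.7 and 428.7 CPM in KO lungs, against 248.9, 224.0 and 288.8 CPM in WT lungs. These groups were apart, at a log2 fold change of 0.69 ± 0.12 (adjusted p = 0.0144). H2-Q6 (chromosome 17, 35424850 to 35430055) had 128.7, 178.0 and 242.7 CPM in KO lungs, against 97.5, 98.6 and 89.1 CPM in WT lungs. Its KO libraries spread widely while its WT libraries lay close together, and the log2 fold change was 0.95 ± 0.18 (adjusted p = 0.0291). H2-Q7 (chromosome 17, 35439155 to 35443773) was the least abundant of the 10 per length, with 14.9, 23.3 and 27.1 CPM in KO lungs against 11.7, 10.63 and 9.78 CPM in WT lungs. It rested on 232, 355 and 444 counts in KO lungs and 170, 181 and 149 counts in WT lungs, and its log2 fold change was 1.02 ± 0.23 (adjusted p = 0.0451). Several of these calls were lost with 1 library left out. For H2-Q4 the adjusted p was 0.0948, 0.0564, 0.0848 and 0.0939 without KO replicates 2 and 3 and WT replicates 1 and 2. For H2-Q6 it was 0.127, 0.0663, 0.142, 0.126 and 0.0639 without KO replicates 2 and 3 and WT replicates 1, 2 and 3. For H2-Q7, with the same libraries left out in turn, it was 0.2, 0.2, 0.131, 0.151 and 0.0907.

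Near-identical copies make the values of some of these genes uncertain, since shared reads may be lost or split in counting. Of all 100-base windows of the reference transcripts, 10.8% in H2-Q6 and 12% in H2-Q7 occurred identically in another gene, as did 8.86% in H2-T22, 3.59% in H2-D1 and 0.957% in H2-K1. At 50 bases the shares were 32% in H2-Q6, 26.4% in H2-Q7, 34.5% in H2-T22, 12.8% in H2-D1 and 9.63% in H2-K1, and at 150 bases they were 5.99, 5.9, 0.384, 1.35 and 0% in the same genes. Which of these sizes is nearest to the reads is not known, since the read length is not given. For B2m and Nlrc5 the share was 0% at all 3 sizes. With the counts of H2-Q6 and H2-Q7 summed, the pair had a log2 fold change of 0.95 ± 0.18 (adjusted p = 0.0263). H2-K1 and H2-D1 summed gave 0.73 ± 0.11 (adjusted p = 0.00886). Balb/c mice also carry H2-L, a further classical gene that was not analysed here and whose reads may fall on its close relative H2-D1.

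H2-M3 (chromosome 17, 37270220 to 37274484) encodes a chain that presents N-formylated peptides. It had 33.5, 34.4 and 48.8 CPM in KO lungs, against 28.8, 24.3 and 25.6 CPM in WT lungs. All KO libraries were above the WT libraries, but KO replicates 1 and 2 by little. The log2 fold change of 0.57 ± 0.17 did not pass (adjusted p = 0.125), and without KO replicate 3 it was 0.37, with an adjusted p of 0.441.

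B2m (chromosome 2, 122147686 to 122153083), the light chain shared by these molecules, had 1639, 1861 and 2268 CPM in KO lungs, against 1036, 976.6 and 1057 CPM in WT lungs. The groups were far apart beside the narrow spread of the WT libraries. The log2 fold change was 0.91 ± 0.13 (adjusted p = 0.00482).

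Nlrc5 (chromosome 8, 94434356 to 94527272), the transactivator, had 60.4, 102.4 and 116.8 CPM in KO lungs, against 40.5, 41.7 and 45.1 CPM in WT lungs. KO replicate 1 stood only a little above WT, and KO replicates 2 and 3 far above it. The log2 fold change was 1.14 ± 0.19 (adjusted p = 0.0155), next to that of H2-T23 the highest of the 10. The adjusted p of Nlrc5 was 0.0945, 0.064, 0.112 and 0.112 without KO replicates 2 and 3 and WT replicates 1 and 2, with log2 fold changes of 0.94 to 1.12 in these fits.

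**Figure D2:**
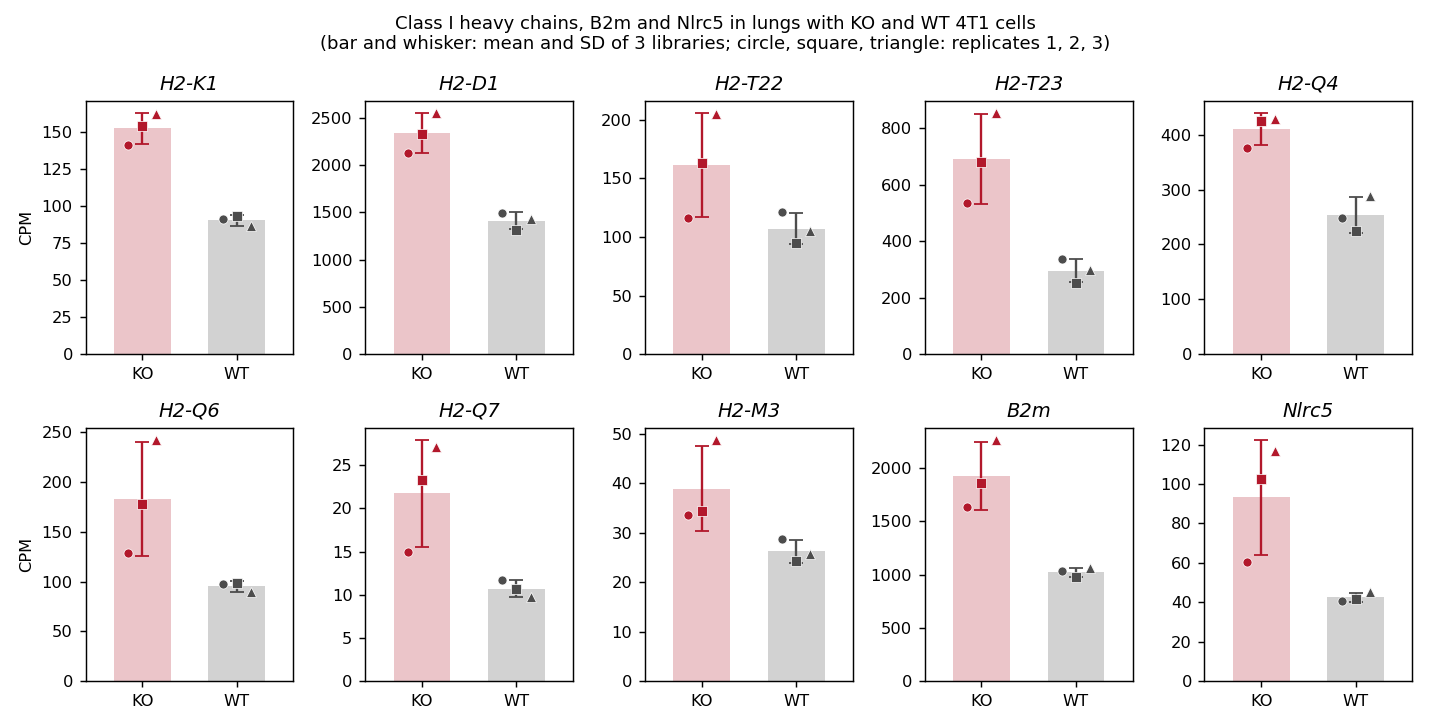
CPM of the 10 genes in lungs with KO and WT 4T1 cells, with a bar at the mean, a whisker for the SD of 3 libraries and a symbol for each replicate. The KO libraries lie above the WT libraries in every panel but H2-T22, where KO replicate 1 at 116.2 CPM lies below WT replicate 1 at 121.4 CPM.

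Within the KO group the 10 genes ranked the libraries alike. KO replicate 3 was the highest and KO replicate 1 the lowest KO library for 10 of 10 genes. Over all genes tested, KO replicate 3 was the highest KO library in 35.5% and KO replicate 1 the lowest in 33.6%. Set against the WT mean on the log2 scale, Nlrc5 stood at 0.51, 1.27 and 1.46 in KO replicates 1 to 3, H2-T22 at 0.12, 0.61 and 0.95, and H2-K1 at 0.65, 0.77 and 0.84. The distance between the KO libraries was thus wide for Nlrc5, H2-Q6, H2-Q7 and H2-T22, and narrow for H2-K1, H2-D1 and H2-Q4. The WT libraries had no common order: the lowest was WT replicate 2 for 6 genes, WT replicate 3 for 3 genes and WT replicate 1 for 1 gene.

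**Figure D3:**
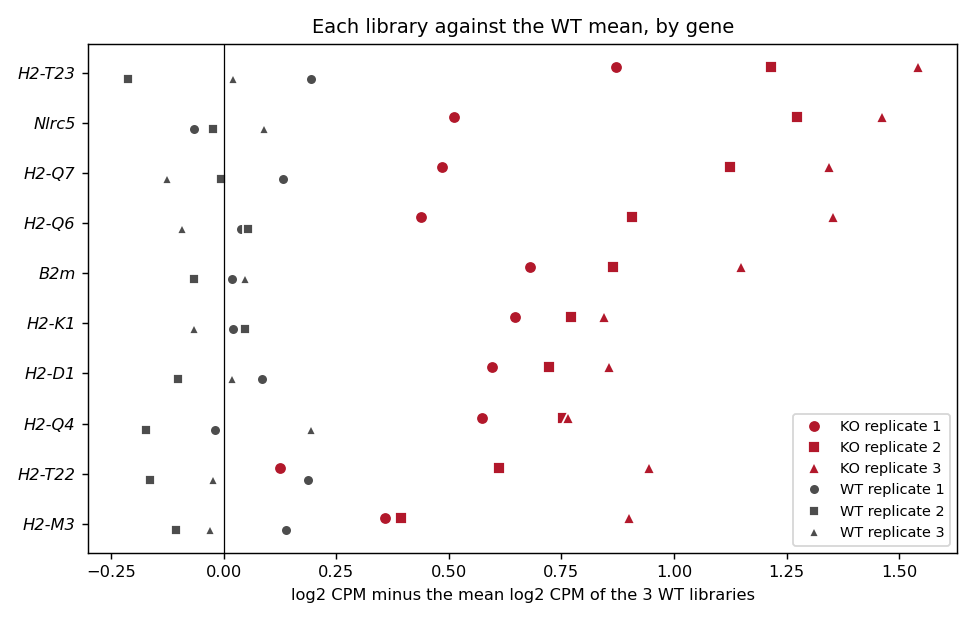
Each library's log2 CPM minus the mean log2 CPM of the 3 WT libraries, by gene, with KO libraries in red and WT libraries in grey. KO replicate 1 is the leftmost and KO replicate 3 the rightmost red symbol in every row, from 0.51 to 1.46 for Nlrc5 and from 0.65 to 0.84 for H2-K1.

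Levels of different genes were compared per length, as RPKM, which are CPM divided by the exonic length in kilobases. In KO lungs the order was B2m (2236 ± 371 RPKM), H2-D1 (906 ± 81.7), H2-T23 (239 ± 55.1), H2-Q4 (158 ± 11.5), H2-Q6 (87.8 ± 27.4), H2-K1 (51.8 ± 3.57), H2-T22 (47.3 ± 13.1), H2-M3 (27.1 ± 5.98), Nlrc5 (10.98 ± 3.45) and H2-Q7 (5.10 ± 1.46 RPKM). Only the neighbours H2-K1 and H2-T22 overlapped in their libraries. In WT lungs the order was B2m (1190 ± 48.6 RPKM), H2-D1 (548 ± 35.2), H2-T23 (102 ± 14.3), H2-Q4 (97.8 ± 12.6), H2-Q6 (45.6 ± 2.49), H2-T22 (31.4 ± 3.88), H2-K1 (30.7 ± 1.24), H2-M3 (18.3 ± 1.61), Nlrc5 (4.995 ± 0.28) and H2-Q7 (2.51 ± 0.22 RPKM). There the pairs H2-T23 and H2-Q4, and H2-T22 and H2-K1, overlapped. H2-D1 was 17.5 ± 0.43 times as abundant as H2-K1 per length in KO lungs and 17.9 ± 1.55 times in WT lungs. The reference transcripts carry H2-K1 and H2-D1 sequences that differ from those of Balb/c. Reads of heavy chain genes may be lost or misplaced to unequal extents. How far this bears on the ratio and on both orders was not tested.

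Ratios between the genes within a library were compared to see whether they moved by unequal amounts. With 3 libraries against 3, the smallest two-sided p an exact permutation test can give is 0.1, or 0.183 after adjustment over the 11 ratios computed, so no ratio could pass. The log2 ratio of counts, not scaled by length, of H2-T23 to H2-K1 was 1.93, 2.15 and 2.40 in KO lungs, against 1.88, 1.44 and 1.79 in WT lungs. The groups did not overlap, with a difference of 0.46. H2-T23 was also higher relative to B2m in all 3 KO libraries, by 0.31. For this ratio the groups nearly touched, at -1.61 in KO replicate 1 and -1.63 in WT replicate 1. Another 4 heavy chains were lower relative to B2m in all 3 KO libraries than in any WT library. Their differences were -0.35 for H2-M3, -0.34 for H2-T22, -0.20 for H2-Q4, whose groups nearly touched, and -0.17 for H2-D1. The other 5 ratios overlapped between the groups, among them H2-K1 to H2-D1, at -3.94 ± 0.04 in KO lungs and -3.97 ± 0.13 in WT lungs.

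Other genes of the class I pathway were read from lists, beside a share of 1.12% higher over all genes tested. Among other class I chain genes of the H2 complex, 28 were listed, 20 had a row and 8 passed the filter. Of these 8, 3 rose and 0 fell, with a median log2 fold change of 0.66. Among the 8, the reference annotation types H2-Q5, H2-T10 and H2-Bl as polymorphic pseudogenes and H2-K2 as a transcribed pseudogene. H2-Q1 had 45.6 ± 3.78 CPM in KO lungs and 19.9 ± 7.89 CPM in WT lungs (log2 fold change 1.20 ± 0.23, adjusted p = 0.0267). H2-Q5 had 78.4 ± 18.8 CPM in KO lungs and 43.8 ± 8.35 CPM in WT lungs (adjusted p = 0.0374). H2-T10, whose transcript accounts for most of the windows shared with H2-T22, had 33.9 ± 10.8 CPM in KO lungs and 16.7 ± 1.68 CPM in WT lungs (adjusted p = 0.0325). The count was 0 without KO replicate 2, KO replicate 3, WT replicate 1 or WT replicate 2, and 1 without WT replicate 3.

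Class I-like genes outside the H2 complex, which encode chains of a similar fold, gave 0 calls among 7 tested, with a median log2 fold change of -0.0037. With 1.12% higher over all genes tested, 0 of 7 is no result about this list. At an unadjusted p under 0.05, 0 were higher and 1 lower by edgeR, and DESeq2 and limma-voom called 0. Mr1, which presents vitamin B metabolites to MAIT cells, had 33.2 ± 0.77 CPM in KO lungs and 43.2 ± 6.96 CPM in WT lungs (adjusted p = 0.242). Cd1d1, which presents lipids to NKT cells, had 23.8 ± 1.21 CPM in KO lungs and 20.7 ± 1.93 CPM in WT lungs (adjusted p = 0.618). Fcgrt, the heavy chain of the neonatal Fc receptor and also a partner of beta-2 microglobulin, had 123 ± 14.95 CPM in KO lungs and 133 ± 17.2 CPM in WT lungs (adjusted p = 0.743).

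Genes for peptide supply and loading had 7 of 13 higher and 0 lower, with a median log2 fold change of 0.83. The share higher over all genes tested was 1.12%. The peptide transporter genes Tap2 and Tap1 rose by log2 fold changes of 1.01 ± 0.13 (adjusted p = 0.00355) and 1.43 ± 0.25 (adjusted p = 0.0347). Tap1 had 249 ± 92.3 CPM in KO lungs and 92.3 ± 6.81 CPM in WT lungs. The immunoproteasome subunits Psmb9 and Psmb10 rose, on the log2 scale, by 1.36 ± 0.17 (adjusted p = 0.00355) and 0.93 ± 0.16 (adjusted p = 0.0146), and the starts of Psmb9 and Tap1, which lie on opposite strands, overlap in the reference. Psme1, a proteasome activator subunit, and Tapbpl, a peptide editor related to tapasin, rose on the same scale by 0.78 ± 0.14 (adjusted p = 0.0191) and 0.83 ± 0.17 (adjusted p = 0.0319), and 1 further member rose. The count was 2 without KO replicate 2, WT replicate 1 or WT replicate 2, 3 without KO replicate 3, and 10 by DESeq2.

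Of the factors that act on class I promoters, 4 of 16 rose and 0 fell, with a median log2 fold change of 0.12. Beside them, 1.12% of all genes tested rose. Among those that rose were 3 factors of the interferon response, Irf1 (log2 fold change 0.91 ± 0.13, adjusted p = 0.00682), Stat2 (0.95 ± 0.13, adjusted p = 0.00482) and Irf9 (0.61 ± 0.13, adjusted p = 0.0416). Irf1 had 508 ± 55.7 CPM in KO lungs and 269.7 ± 47.1 CPM in WT lungs. The RFX, NF-Y and CREB subunits that assemble with Nlrc5 gave no call among 8 tested, with fold changes between -0.27 and 0.31 on the log2 scale. The 4 calls came to 1 without KO replicate 2 and to 2 without KO replicate 3 or any WT replicate.

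Receptors for class I on leukocytes gave 0 calls among 9 tested, at a median log2 fold change of 0.34. With 1.12% higher over all genes tested, 0 of 9 is no result about this list either. At an unadjusted p under 0.05, 2 were higher and 0 lower by edgeR, DESeq2 called 1 and limma-voom 0. Cd8a, a chain of the coreceptor of cytotoxic T cells, had 12.3 ± 1.59 CPM in KO lungs and 6.35 ± 1.49 CPM in WT lungs (adjusted p = 0.0881). The other chain, Cd8b1, overlapped between the groups, at 7.63 ± 2.53 CPM in KO lungs and 5.73 ± 3.47 CPM in WT lungs (adjusted p = 0.703). Pirb, an inhibitory receptor of myeloid and B cells, had 29.5 ± 5.27 CPM in KO lungs and 20.0 ± 5.52 CPM in WT lungs (adjusted p = 0.222). Klra3, a receptor of natural killer cells, had 5.49 ± 2.03 CPM in KO lungs and 7.996 ± 2.28 CPM in WT lungs (adjusted p = 0.496).

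**Figure D4:**
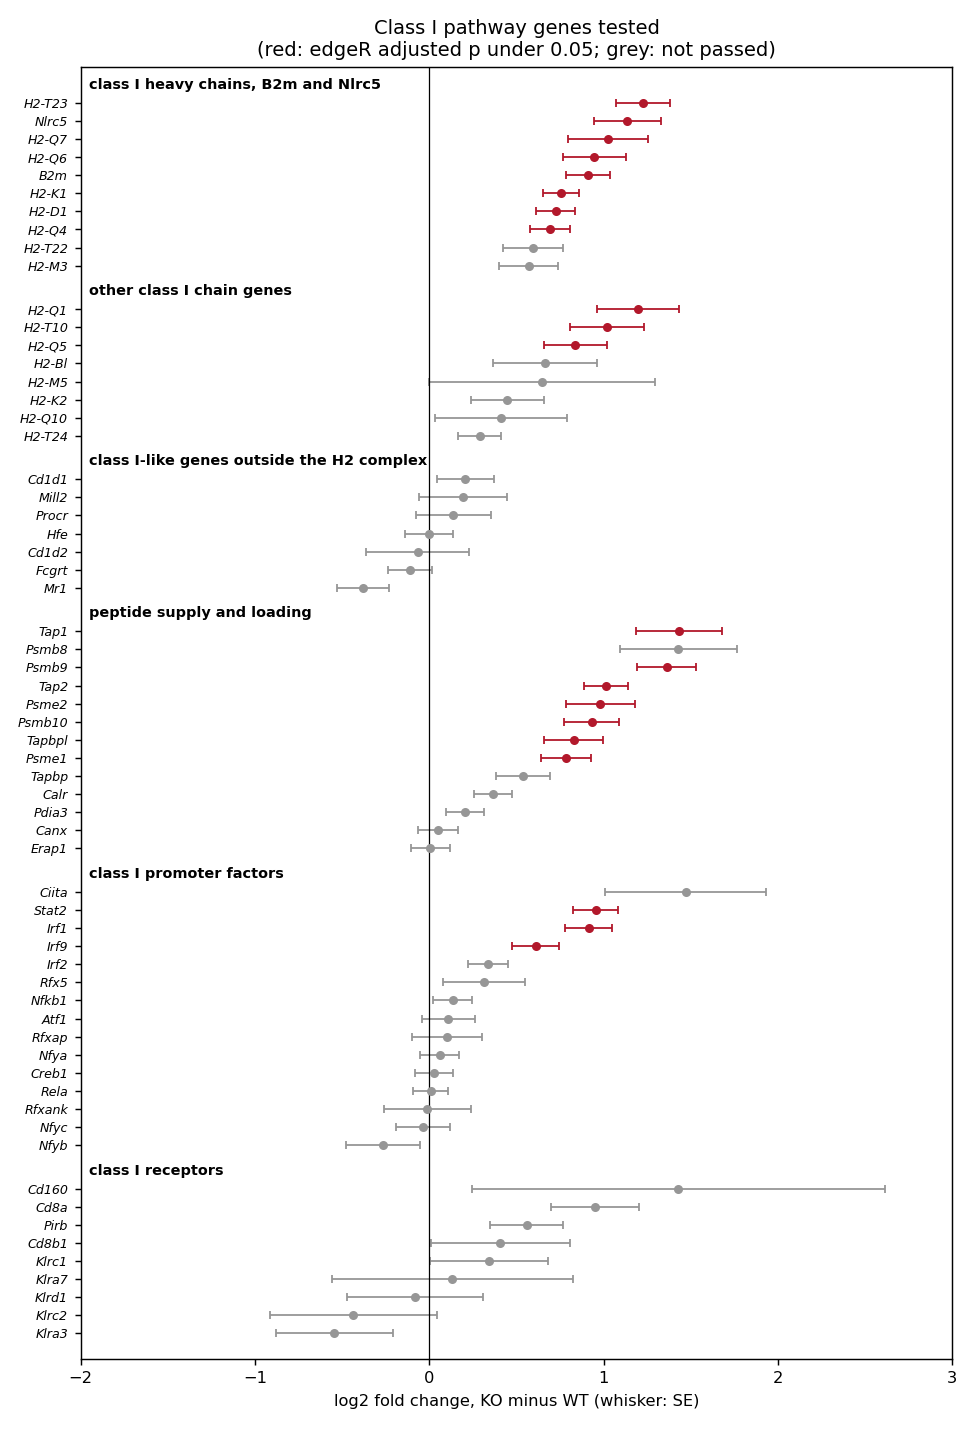
Log2 fold change (KO minus WT) with its SE for the tested genes of the class I lists except 1 promoter factor, in red where the adjusted p was under 0.05. The 10 genes described lie between 0.57 and 1.23, and class I-like genes outside the H2 complex lie between -0.38 and 0.21.

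Position was compared with change along the H2 complex, from H2-K1 to H2-M3 (chromosome 17, 33996017 to 37274484, a span of 3.28 Mb). Genes were sorted into classes by symbol alone, so any class I gene without an H2 symbol, such as under a Gm symbol, counts as neither. Of the 7 other class I genes tested in this span 3 rose, with a median log2 fold change of 0.66. Class II genes by symbol, only part of which encode chains that present peptides to CD4+ T cells, rose in 5 of 10 cases. Their median log2 fold change was 0.96. Of the 101 genes of neither class by symbol, 6 rose and 0 fell, with a median of 0.15. These 6 were Tap1, Tap2 and Psmb9 of the peptide supply list, the lymphotoxin beta gene Ltb (0.97 ± 0.16, adjusted p = 0.0144), Aif1, expressed in macrophages (1.77 ± 0.33, adjusted p = 0.0206), and Gm11127 (1.36 ± 0.24, adjusted p = 0.0161). The other 95 were not called. Over all genes tested 1.12% were higher and the median was 0.01, and the difference between these neighbours and genes elsewhere was not tested.

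**Figure D5:**
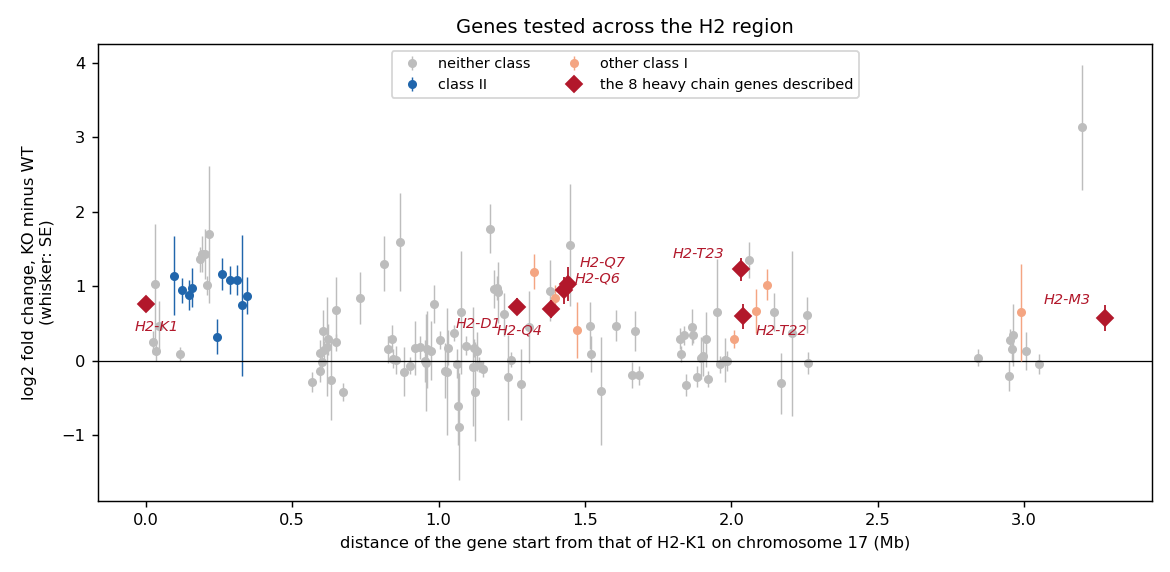
Log2 fold change (KO minus WT) with its SE for genes tested across the H2 complex, by distance in Mb of the gene start from that of H2-K1. The 8 heavy chain genes lie between 0.57 and 1.23 at both ends and in the middle of the 3.28 Mb span. Genes of neither class by symbol have a median of 0.15.

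Likeness of pattern was measured as the mean absolute difference of log2 CPM over the 6 libraries, after each gene was centred on its own mean, among 12544 genes. Nearest to Nlrc5 were the scavenger receptor gene Msr1 (0.069), the class II gene H2-Ab1 (0.069), the calprotectin subunit gene S100a8 (0.075), the lipocalin gene Lcn2 (0.085) and Pole, a DNA polymerase subunit gene (0.088). Nearest to H2-K1 were Mrpl52 (0.051), Tnfrsf12a (0.069), Tmem106a (0.070), Hps6 (0.074) and Lsm2 (0.074). Among the 10 genes themselves, H2-K1 and H2-D1 were closest (0.068), then H2-Q6 and H2-Q7 (0.076) and H2-D1 and H2-Q4 (0.079). Nlrc5 was nearest to H2-Q7 (0.113) and H2-Q6 (0.127), and H2-T23 and H2-M3 were farthest apart (0.330).

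Summed markers of several cell types differed between the groups, though not all in the direction of these genes. For the counts of single markers called, 1.12% of all 15191 genes tested were higher and 51 were lower. Of the 7 monocyte and macrophage markers whose sum is given above, 3 were higher. The summed CPM of these markers ranked the KO libraries in the same order as the 10 genes did. So did the sums of the neutrophil, T cell and dendritic cell markers. Sums for endothelium, alveolar epithelium, alveolar macrophages and epithelial markers of the kind 4T1 cells express had the reverse order. The remaining lists had neither order. Among 6 neutrophil markers, 2 of 5 tested were higher, and the sum was 300.5 to 461 CPM in KO lungs and 156 to 252 CPM in WT lungs. Of 4 airway epithelial markers 1 was higher, with sums of 1583 to 3505 CPM in KO lungs and 414 to 973 CPM in WT lungs. Of 5 platelet markers 1 was lower, with sums of 12.5 to 24.3 CPM in KO lungs and 44.6 to 67.8 CPM in WT lungs. No marker in these 4 lists was at 0 in all libraries. Their part in the class I values was not tested.

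Sums overlapped between the groups for 7 pan-leukocyte markers (1959 to 2588 CPM in KO lungs and 1532 to 2043 CPM in WT lungs), of which 2 were higher, for alveolar epithelium, for endothelium, and for 6 epithelial markers of the kind 4T1 cells express (557 to 606 CPM in KO lungs and 509 to 617 CPM in WT lungs). They also overlapped for T cells, B cells, natural killer cells, dendritic cells, alveolar macrophages and erythroid cells. Divided by the monocyte and macrophage sum, the summed CPM of the 8 heavy chains was 10, 8.77 and 8.43 in KO lungs, against 9.61, 9.24 and 8.46 in WT lungs, and overlapped. Divided by the endothelial sum, it was 0.689, 0.981 and 1.12 in KO lungs, against 0.454, 0.474 and 0.509 in WT lungs, and did not overlap. The ratio also overlapped for the pan-leukocyte, T cell, B cell, natural killer cell, alveolar macrophage, neutrophil and airway epithelial sums. It was higher in all KO libraries than in any WT library for the dendritic cell, alveolar epithelial, 4T1-type epithelial, platelet and erythroid sums. These ratios were added after the data had been seen and describe the libraries only.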

How the data were processed

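Each of the 6 libraries was a deposited table of raw read counts by Ensembl gene. Per the labels' protocols, the authors aligned read pairs with STAR 2.5 to the mm10 (GRCm38) genome and counted them using HTSeq 0.6.1. No source used here gives the read length, annotation release, strand setting or counting mode. Whether reads of overlapping and antisense genes were told apart is therefore not known. Of 35275 rows, 34490 matched a GENCODE M21 symbol, 0 named no gene, and rows without a symbol held at most 0.0941% of a library.

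KO was compared with WT in edgeR 4.0.16 under R 4.3.3 by the quasi-likelihood test (TMM, filterByExpr with a minimum count of 10, robust fit, group alone, two-sided), with Benjamini-Hochberg adjustment over 15191 genes at 0.05. The procedure was tested on simulated data. CPM use TMM-scaled library sizes, RPKM the exonic length in GENCODE M21. SE was computed as log2 fold change over the root of F. Alternatives used DESeq2 1.42.0, limma-voom (limma 3.58.1), other scalings and filters, a minimum fold of 1.5, each library left out and the replicate number as a block. Counts between libraries of the same group differed by 14.7 to 26.98 times sampling variance. Between a KO and a WT library the value reached 51.8. Separate animals are not stated for the libraries, and the p-values cover only their spread, which may be technical.

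All 10 genes are named. Of other lists, called members were named (the smallest p where fewer than 3), up to 6, and of the H2 complex up to 6 neighbours of neither class. The 5 nearest genes by pattern were named for Nlrc5 and H2-K1. The genes and lists were chosen with earlier results of these data known. The values of 1 promoter factor are not reported here. A planned comparison of protein sequences was not run.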

Additional observations from a re-analysis of the deposited data

How the results depend on the processing

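Of the 10 genes, 8 rose under the other scalings (size factors by relative log expression, and library totals alone), with a minimum count of 50, without the robust fit and with the replicate number as a block. The count was 10 with no filter on low counts, 9 by DESeq2 and 7 by limma-voom, which did not call H2-Q7. It was 0 with a minimum fold of 1.5 in the test, as were the calls in the other class I lists, against 14 in the main analysis. Leaving out 1 library gave 3 to 9 of the 10 genes and 3 to 18 calls in the other lists. No fold change of the 10 genes changed sign under any of these alternatives. Over all genes, the 170 higher and 51 lower calls became 578 and 225 with no filter, 354 and 233 by DESeq2, 309 and 96 with the block, 1 and 1 with the minimum fold, and 22 to 404 and 2 to 174 with 1 library left out. Fewer samples were fitted where a library was left out, and the cause of the other shifts was not tested. Ratios near 0 changed sign with 1 library left out: the log2 difference between KO and WT lungs ran from -0.10 to 0.12 for H2-Q6 over B2m, from -0.0006 to 0.23 for H2-Q7 over B2m and from -0.0112 to 0.10 for H2-K1 over H2-D1. Same-numbered libraries did not deviate together (correlations of 0.0273, -0.019 and 0.0091), so the numbers were not taken as pairs. With 3 libraries a group, ratios within libraries could not pass 0.05.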
